A study of Mus musculus with 6 samples.

Results

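The genes of the proteasome family were defined as the protein-coding mouse genes whose symbol starts with Psma, Psmb, Psmc, Psmd, Psme, Psmf or Psmg followed by a digit. Of 53465 genes in the count matrix 50 met this definition, and 49 of them had enough reads to be tested among 13768 genes. The RNA came from brain endothelial cells of whole cortex, taken from male mice of 8 to 12 weeks with the genotype tie2-Cre; ai9; rpl22HA/HA. Both groups thus carried the Cre driver, the fluorescent Ai9 reporter and a tagged form of the ribosomal protein Rpl22, and they differed in treatment, either phosphate-buffered saline (PBS) or the GABA-A receptor antagonist and convulsant pentylenetetrazol (PTZ), with 3 libraries per group, numbered 1, 2 and 4. Tie2 drives Cre in endothelium and also in part of the blood lineage, so cells with Cre need not all be endothelial. The title of the series speaks of a translatome, whereas the labels name total RNA taken up in Trizol. Dose, route, interval to collection and the step that isolated cells or ribosomes are not stated in the labels. Nothing says that each library came from its own animal, so the p-values describe the spread among these 6 libraries, and that spread may be technical.

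The proteasome is the large protease that degrades proteins marked with ubiquitin. Its 20S core is a barrel of outer alpha rings and inner beta rings, and 3 of the beta subunits, encoded by Psmb5, Psmb6 and Psmb7, cut peptide bonds. A 19S particle of ATPases and other subunits recognises ubiquitin, unfolds the substrate and feeds it into the barrel. Interferon-gamma induces the alternative catalytic subunits Psmb8, Psmb9 and Psmb10, which replace those 3 in newly built immunoproteasomes, and the PA28 activator of Psme1 and Psme2. Immunoproteasomes favour peptides that fit MHC class I molecules, and they are prominent in immune cells, microglia among them. The family was therefore described with the immunoproteasome genes apart from the rest.

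Gene counts summed to 11107481 to 15406967 per library. All 12 endothelial markers were detected, with Pecam1 at 476 to 612 CPM in PBS and 556 to 704 CPM in PTZ and Cldn5 at 491 to 1240 CPM and 463 to 1520 CPM. Of these markers 10 had a positive log2 fold change, PTZ against PBS (median 0.19), and for 3 the groups did not overlap, with PTZ above (background 7.3%). They summed to 9972 to 14383 CPM in PBS and 11075 to 18313 CPM in PTZ, and their part in the values of the family was not tested. CPM are a gene's reads divided by the TMM-adjusted library total and put on a common scale. Microglial and myeloid markers were also present: the 12 genes of that list summed to 3365 to 4315 CPM in PBS and 2315 to 3402 CPM in PTZ, and C1qa, one of its defining genes, stood at 313 to 862 CPM over the 6 libraries. In bulk RNA of this kind, fewer cells of a type and less RNA per cell cannot be told apart. PTZ library 1 had the largest share of reads in no annotated feature, 9.34% against 2.99% to 5.19% in the other libraries.

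Promoter windows show where known regulators could meet the family's sequences. RefSeq windows of 300 bases (250 before and 50 after a start, build GRCm38.p6) were matched by symbol for 42 of the 50 members, 45 windows in all, and 10 motifs were searched on both strands. Psmb5 and Psmb8 are shown as the constitutive and immune forms of the chymotrypsin-like subunit, Psmb9 for its start next to that of Tap1, Psme1 as the PA28 gene with an interferon-type match, and Psmd6 as a 19S gene with an ETS match. Each is printed 5′ to 3′ on the gene's own strand, with the match in capitals. The windows are chr14:54617946-54618245 for Psmb5 (minus strand), chr17:34197945-34198244 for Psmb8 (plus), chr17:34187281-34187580 for Psmb9 (minus), chr14:55578244-55578543 for Psme1 (plus) and chr14:14120896-14121195 for Psmd6 (minus).
Psmb5: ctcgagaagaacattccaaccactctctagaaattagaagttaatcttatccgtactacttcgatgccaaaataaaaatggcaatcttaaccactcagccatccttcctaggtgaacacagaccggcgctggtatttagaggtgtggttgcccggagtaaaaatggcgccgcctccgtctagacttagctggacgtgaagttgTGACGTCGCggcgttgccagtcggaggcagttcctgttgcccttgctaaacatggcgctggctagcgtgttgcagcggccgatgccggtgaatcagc
Psmb8: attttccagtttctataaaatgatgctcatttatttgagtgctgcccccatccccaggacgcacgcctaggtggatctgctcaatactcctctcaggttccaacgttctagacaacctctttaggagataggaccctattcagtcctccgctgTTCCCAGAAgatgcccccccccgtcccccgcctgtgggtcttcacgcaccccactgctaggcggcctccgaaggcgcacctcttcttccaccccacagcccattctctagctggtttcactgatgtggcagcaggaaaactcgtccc
Psmb9: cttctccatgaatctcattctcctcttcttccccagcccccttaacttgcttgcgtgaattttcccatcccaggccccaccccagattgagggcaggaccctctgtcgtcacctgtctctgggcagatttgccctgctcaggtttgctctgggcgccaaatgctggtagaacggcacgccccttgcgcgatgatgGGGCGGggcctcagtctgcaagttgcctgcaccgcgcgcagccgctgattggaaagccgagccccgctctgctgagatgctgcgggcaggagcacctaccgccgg
Psme1: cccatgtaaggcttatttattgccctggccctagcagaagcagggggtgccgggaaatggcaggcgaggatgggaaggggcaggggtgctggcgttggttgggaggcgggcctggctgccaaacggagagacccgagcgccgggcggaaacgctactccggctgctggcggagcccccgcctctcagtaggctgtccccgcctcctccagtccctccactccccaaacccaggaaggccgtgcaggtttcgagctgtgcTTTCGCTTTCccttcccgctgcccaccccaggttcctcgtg
Psmd6: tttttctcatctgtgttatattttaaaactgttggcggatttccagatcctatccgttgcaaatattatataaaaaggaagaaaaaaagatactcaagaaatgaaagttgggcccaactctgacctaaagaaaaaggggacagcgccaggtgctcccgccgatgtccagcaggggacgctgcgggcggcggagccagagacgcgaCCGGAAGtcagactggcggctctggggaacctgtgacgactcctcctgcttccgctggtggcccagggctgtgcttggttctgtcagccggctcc
The capitals mark TGACNNNGC, the core of the antioxidant response element bound by Nfe2l1 and Nfe2l2, in Psmb5, and TTCNNNGAA, the gamma-activated site of interferon-responsive genes, in Psmb8. In Psmb9 they mark GGGCGG, the Sp1 box, in Psme1 the reverse complement of the interferon-stimulated response element, written as GAAA, any 2 bases and GAAA, and in Psmd6 CCGGAAG, a site of ETS factors. None of these 5 marked matches overlapped a match to another of the 10 motifs.

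The ETS site CCGGAAG was in 35.6% of the family's windows and in 8.86% of all 32851 windows, and GGGCGG in 53.3% and 35.7%. The interferon-stimulated response element was in 11.1% of the family's windows against 3.44% of all, in Psmb3, Psmd4, Psmd9, Psme1 and Psmg4. TGACNNNGC, by contrast, stood at 13.3% against 12.4%, in Psmb5, Psmb6, Psmc6, Psmd9, Psmd12 and Psme4, and its full form TGACTCAGC was in 0 of the 45. The gamma-activated site TTCNNNGAA was in 6.67% against 8.30% of all windows, the CCAAT box in 33.3% against 37.4%, and TATAAA in 8.89% against 13.6%. The site of nuclear respiratory factor 1 was in 4.44% against 0.971%, in Psma2 and Psmg1, and the heat shock element (TTC, GAA and TTC, each 2 bases apart) was in 0 of the 45 windows. Such matches describe letters in these windows and were not tied to binding or to the fold changes.

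Most members of the family had slightly lower levels in PTZ, and none passed the test. Of the 49 tested members 39 (79.6%) had a negative log2 fold change, PTZ against PBS, where 47.3% of all genes tested did. The median over the members was -0.18, a fold of 0.885, and over all genes it was 0.03. In edgeR's quasi-likelihood test an adjusted p under 0.05 was reached by 0 members in either direction (background 0% higher and 0% lower), and the smallest adjusted p of a member was 0.648. DESeq2 and limma-voom also called 0 members. An unadjusted p under 0.05 in edgeR was found for 0 members with a positive and 2 with a negative value, Psmg2 and Psmd10, which is 4.08% lower against a background of 3.38% (higher: 3.83%). All PTZ libraries lay below all PBS libraries for 8 of the 49 (16.3%, background 7.04%), namely Psma4, Psma5, Psmb7, Psmc2, Psmc5, Psmd6, Psmd10 and Psmg2. All PTZ libraries lay above for 1 of the 49 (2.04%, background 7.3%), Psmd3. Members are expressed in the same 6 libraries and are not independent of each other.

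**Figure D1:**
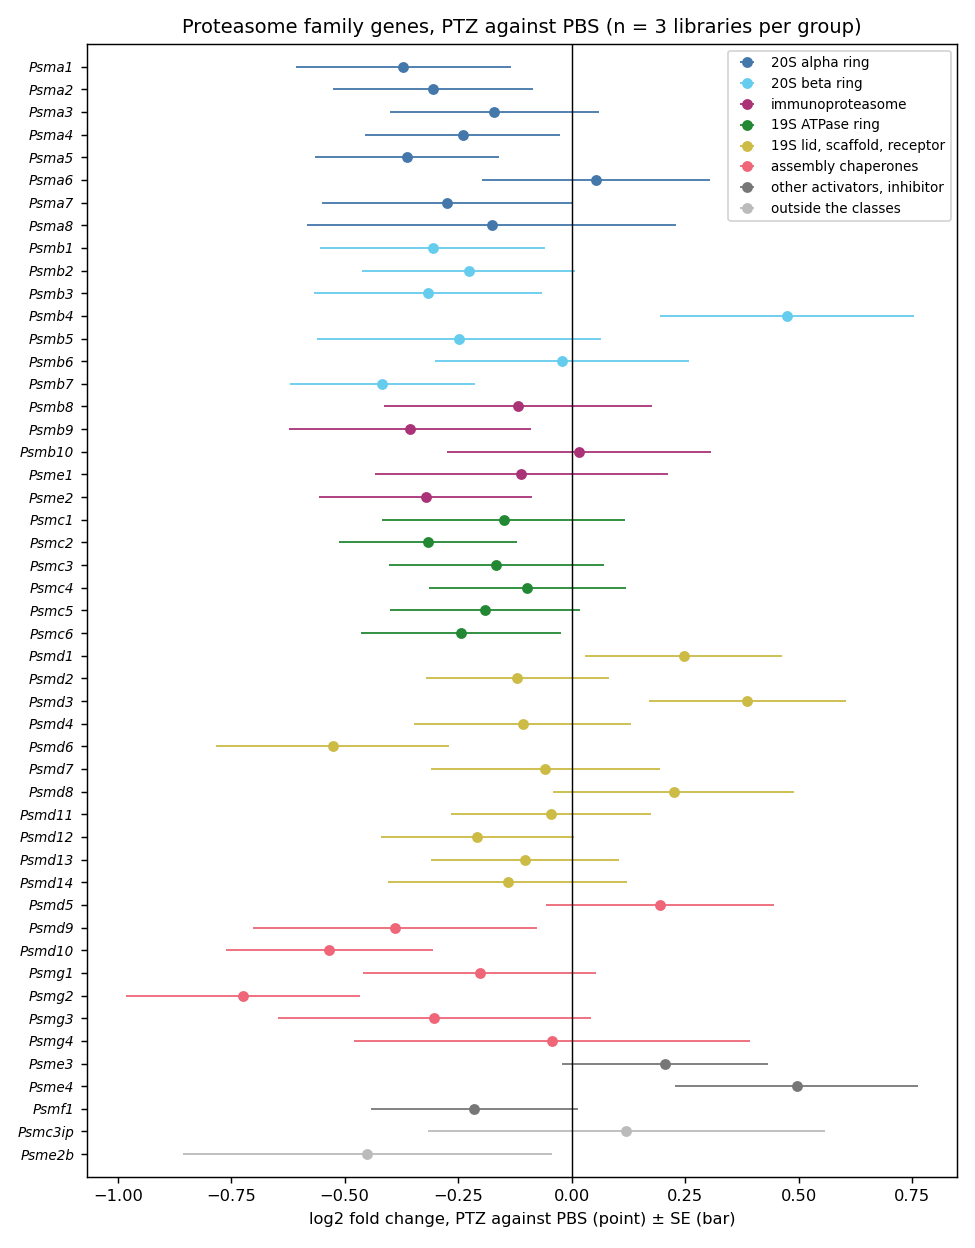
Log2 fold change of each of the 49 tested members, PTZ against PBS (horizontal axis), with its SE as a bar and colour by class. Most points lie left of 0, between Psmg2 at -0.72 and Psme4 at 0.50, and for no member did the adjusted p fall below 0.648.

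The summed level of the family was 13216, 13070 and 14066 CPM in the PBS group, in the order of libraries 1, 2 and 4 used throughout. It was 10865, 13677 and 11851 CPM in the PTZ group. The groups overlapped: PTZ libraries 1 and 4 were the lowest of the 6, while PTZ library 2 lay above PBS libraries 1 and 2. PTZ library 1 had the lowest level of the 6 libraries for 22 of the 49 members, and PBS libraries 1 and 4 had the highest for 14 members each. Libraries with the same number were taken as pairs across the groups, because they deviated together from their group means, although the labels state no pairing. Within pair 1, 40 of the 49 members were lower in PTZ (81.6%, against 47.3% of all genes), with a median log2 ratio of -0.28. Within pair 4 it was 35 (71.4%, against 50.4%), with a median of -0.29. Within pair 2 it was 23 (46.9%, against 49.4%), with a median of 0.02, so pair 2 did not share the shift of the other pairs. In all 3 pairs together 17 members were lower (34.7%, against 16.6% of all genes) and 4 were higher (8.16%, against 18.5%), the latter being Psmc3ip, Psmd3, Psme3 and Psme4.

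**Figure D2:**
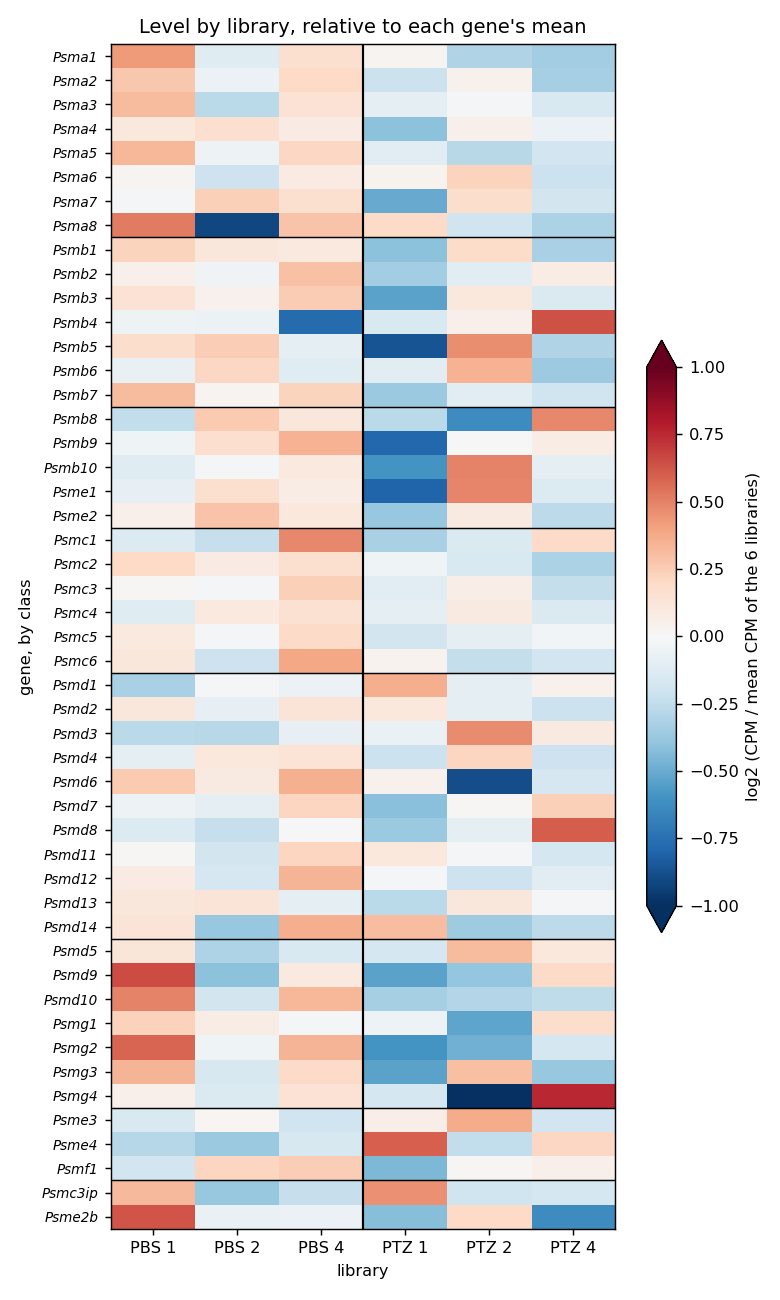
Level of each tested member (rows, by class) in each library (columns) as log2 of CPM over the gene's mean in the 6 libraries, with red above and blue below the mean. PTZ library 1 is the lowest for 22 of the 49 members, and PTZ library 2 has strong values of both signs, such as high Psmb10 and Psme1 and low Psmd6 and Psmg4.

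The alpha ring, whose subunits gate the entrance to the barrel, had a median log2 fold change of -0.26 over its 8 genes, 7 of them negative. Its members summed to 3577, 3288 and 3597 CPM in PBS and 2828, 3470 and 2826 CPM in PTZ, so the groups overlapped through PTZ library 2. Psma5 stood at 209, 160 and 192 CPM in PBS and at 154, 137 and 146 CPM in PTZ (log2 fold change -0.36, SE 0.20, adjusted p = 0.724 in edgeR). Psma1 stood at 415, 284 and 346 CPM in PBS and 315, 251 and 243 CPM in PTZ (-0.37, SE 0.24, adjusted p = 0.764 in edgeR). For Psma5 the groups did not overlap, and for Psma1 PTZ library 1 lay within the PBS range. Psma6 stood at 811, 687 and 839 CPM in PBS and 814, 928 and 683 CPM in PTZ, and its value of 0.05 (SE 0.25) turned negative under the authors' scaling (-0.02).

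Levels between subunits were compared per kilobase of merged exons over all 6 libraries. In the alpha ring Psma6 was highest at 643 CPM per kb, followed by Psma7 at 368, and the 5 others of the standard ring lay between 76.9 (Psma2) and 126 (Psma5) CPM per kb. Per kilobase of coding sequence the same genes ran from 224 (Psma5) to 1488 (Psma7) CPM per kb, with Psma6 at 1048, so the order at the top depends on the length used. Psma8, the form known from testis, stood at 6.38 CPM per kb of exon, and at 22.8, 8.49 and 19.3 CPM in PBS and 18.2, 13.9 and 12.8 CPM in PTZ. It is a close paralog of Psma7, and reads assigned to it are uncertain for that reason.

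The beta ring without its immune forms had a median of -0.25 over 7 tested genes, 6 of them negative, with a summed level of 3012, 3093 and 2966 CPM in PBS and 2306, 3282 and 2563 CPM in PTZ. Psmb7, the trypsin-like catalytic subunit (ENSMUSG00000026750, chromosome 2, 38588036 to 38644087, minus strand), stood at 90.3, 73.8 and 84.6 CPM in PBS and 56.1, 67.1 and 63.1 CPM in PTZ. All its PTZ values lay below all PBS values (-0.42, SE 0.20, adjusted p = 0.700 in edgeR). Of its exonic length 11.8% lies under Nek6 on the opposite strand, as 14.7% of that of Psmb8 lies under Gm20496, and without strand such reads cannot be assigned with certainty. Psmb5, the chymotrypsin-like subunit and the main target of proteasome inhibitor drugs (ENSMUSG00000022193, chromosome 14, 54614119 to 54618022, minus strand), stood at 178, 186 and 148 CPM in PBS and 86.2, 218 and 128 CPM in PTZ. PTZ libraries 1 and 2 were its lowest and highest values of all 6 (-0.25, SE 0.31), and without PTZ library 1 the value was 0.02. Of the exonic length of Psmb5 12.1% lies under Mir686 on the same strand, where reads cannot be assigned with certainty even with strand. Psmb6, the caspase-like subunit (ENSMUSG00000018286, chromosome 11, 70525367 to 70527858, plus strand), stood at 943, 1146 and 915 CPM in PBS and 920, 1268 and 772 CPM in PTZ (-0.02, SE 0.28), with overlapping groups.

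Psmb4, which is incorporated during assembly of the barrel, was the beta gene with a positive value: 150, 149 and 91.0 CPM in PBS and 140, 161 and 240 CPM in PTZ (0.47, SE 0.28, adjusted p = 0.742 in edgeR). PBS library 4 was its lowest value and PTZ library 4 its highest, and PTZ library 1 lay below PBS libraries 1 and 2. The value was 0.21 without PTZ library 4 and 0.25 without PBS library 4. Psmb1, Psmb2 and Psmb3 had values of -0.31, -0.23 and -0.32. Per kilobase of exon Psmb6 was the highest beta gene at 531 CPM per kb and Psmb7 the lowest of the standard ring at 21.2 CPM per kb. Psmb11, the thymus form, had 2 to 7 reads per library and did not reach the test.

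The immunoproteasome genes had a median of -0.12 over 5 genes, 4 of them negative, and all 5 overlapped between the groups. Without PTZ library 2 the median was -0.50 and without PTZ library 1 it was -0.02. Their summed level was 1591, 1878 and 1799 CPM in PBS and 1129, 2035 and 1603 CPM in PTZ, with PTZ libraries 1 and 2 the lowest and highest of the 6. Psmb8 (ENSMUSG00000024338, chromosome 17, 34197721 to 34201454, plus strand) stood at 159, 226 and 204 CPM in PBS and at 157, 122 and 264 CPM in PTZ (-0.12, SE 0.30). Its PTZ libraries held both the lowest and the highest value, and without PTZ library 2 the log2 fold change was 0.06. Psmb9 (ENSMUSG00000096727, chromosome 17, 34181987 to 34187764, minus strand) stood at 57.3, 66.4 and 75.3 CPM in PBS and 34.3, 59.1 and 62.0 CPM in PTZ (-0.36, SE 0.27, adjusted p = 0.791 in edgeR). Its lowest value was PTZ library 1, and the other PTZ libraries lay within the PBS range. Psmb10 (ENSMUSG00000031897, chromosome 8, 105935735 to 105938444, minus strand) stood at 372, 401 and 434 CPM in PBS and 268, 572 and 380 CPM in PTZ (0.02, SE 0.29), a value near 0 whose sign turned under 8 of the 14 alternatives, 2 scalings among them.

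Psme1 and Psme2 encode the subunits of the interferon-induced activator PA28. Psme1 stood at 553, 654 and 617 CPM in PBS and at 336, 820 and 534 CPM in PTZ (-0.11, SE 0.32), with PTZ libraries 1 and 2 again at the ends of the range. Psme2 stood at 449, 531 and 469 CPM in PBS and 334, 462 and 363 CPM in PTZ (-0.32, SE 0.23, adjusted p = 0.784 in edgeR), with PTZ library 2 inside the PBS range. Psme1 had 1.23 to 1.32 reads per read of Psme2 in PBS and 1.01, 1.78 and 1.47 in PTZ libraries 1, 2 and 4. Psme2b, a near-identical copy of Psme2 on chromosome 11, stood at 11.3 to 18.2 CPM in PBS and 7.64 to 13.5 CPM in PTZ, and how reads were divided between the copies is uncertain. It was kept outside the classes together with Psmc3ip, a gene named for its binding to Psmc3 that acts in meiotic recombination, which stood at 7.01 to 12.5 CPM over the 6 libraries.

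**Figure D3:**
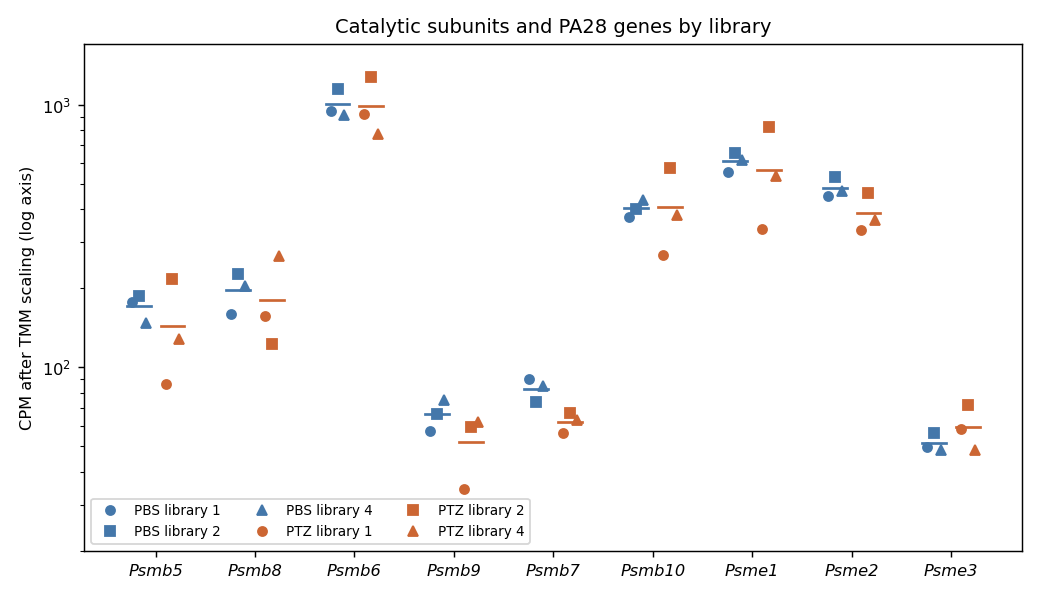
CPM on a log axis for the catalytic subunit pairs (constitutive form left, immune form right), Psme1, Psme2 and Psme3, with 1 point per library and a line at each group mean. Psmb7 is the gene here whose groups do not overlap. For every gene shown except Psmb7, the PTZ points spread wider than the PBS points.

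The share of the immune form within each catalytic pair does not depend on how libraries are scaled. As reads per kilobase of exon, Psmb8 made up 19.2%, 24.4% and 26.9% of the pair with Psmb5 in PBS libraries 1, 2 and 4 and 32.6%, 13.0% and 35.5% in PTZ. The group means were 23.5% ± 3.90 and 27.0% ± 12.2 (SD, n = 3 each). PTZ libraries 1 and 4 lay above all PBS libraries and PTZ library 2 below all of them, so the difference of means, 3.52 percentage points, was within the spread of the PTZ libraries. Psmb9 made up 3.01%, 2.88% and 4.04% of the pair with Psmb6 in PBS and 1.87%, 2.33% and 3.95% in PTZ. Psmb10 made up 89.2%, 91.6% and 91.1% of the pair with Psmb7 in PBS and 90.5%, 94.5% and 92.4% in PTZ, with group means of 90.6% ± 1.26 and 92.5% ± 1.97 (SD, n = 3 each). All pairs thus overlapped between the groups, and the pairs differed far more from each other than the groups did. The level of a share depends on the lengths assumed: with coding lengths Psmb8 came to 52.3% in PBS and 55.0% in PTZ.

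**Figure D4:**
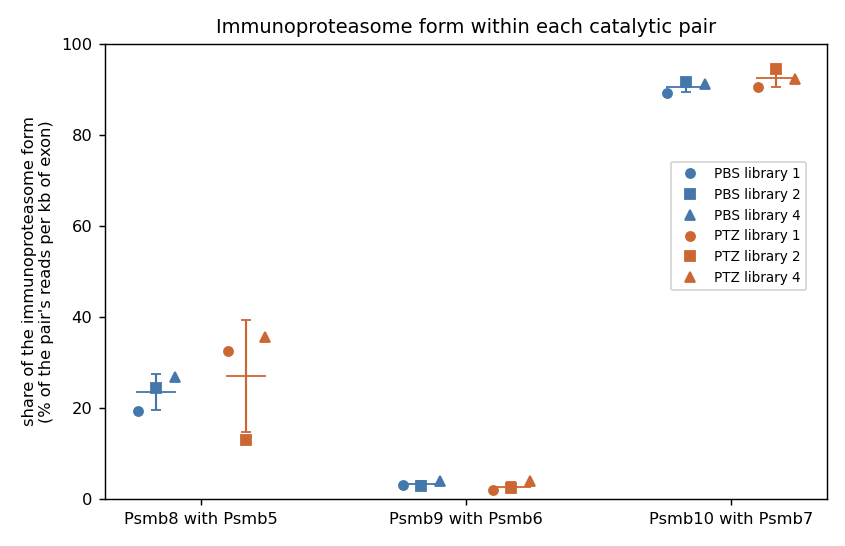
Share of the immune form in the reads per kilobase of exon of each catalytic pair (percent), with 1 point per library and the group mean ± SD (n = 3). Psmb10 outweighs Psmb7 and Psmb6 outweighs Psmb9 in all libraries, while the share of Psmb8 runs from 13.0% to 35.5% among the PTZ libraries.

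The ATPase ring of the 19S base, which unfolds substrates, had negative values for all 6 genes, with a median of -0.18 and a range from -0.32 to -0.10. Psmc2 stood at 210, 194 and 204 CPM in PBS and 177, 164 and 147 CPM in PTZ (-0.32, SE 0.20, adjusted p = 0.759 in edgeR). All its PTZ libraries lay below all PBS libraries, as did those of Psmc5 (353, 326 and 379 CPM in PBS, 291, 311 and 325 CPM in PTZ, -0.19, SE 0.21). Psmc6 stood at 148, 118 and 179 CPM in PBS and 140, 116 and 120 CPM in PTZ (-0.24, SE 0.22), with overlap. Per kilobase of exon the ring ran from 36.3 (Psmc2) to 237 (Psmc5) CPM per kb, with Psmc3 at 235. Per kilobase of coding sequence it ran from 110 (Psmc6) to 415 (Psmc3), so both ends depend on the length used.

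The 11 other 19S genes, which build the scaffold, the lid and the ubiquitin receptor, had a median of -0.10, with 8 negative and 3 positive. Psmd6, a lid subunit (ENSMUSG00000021737, chromosome 14, 14112174 to 14120984, minus strand), stood at 167, 148 and 177 CPM in PBS and 143, 74.9 and 123 CPM in PTZ (-0.53, SE 0.26, adjusted p = 0.700 in edgeR), with no overlap. Psmd3, another lid subunit (ENSMUSG00000017221, chromosome 11, 98682554 to 98695979, plus strand), stood at 76.1, 75.5 and 86.8 CPM in PBS and 87.4, 127 and 97.4 CPM in PTZ (0.39, SE 0.22, adjusted p = 0.724 in edgeR). Its lowest PTZ library lay just above its highest PBS library. Psmd4, a ubiquitin receptor, stood at 471, 538 and 549 CPM in PBS and 432, 582 and 433 CPM in PTZ (-0.11, SE 0.24). Psmd14, the deubiquitinase of the lid, stood at 107, 75.6 and 126 CPM in PBS and 122, 76.8 and 82.0 CPM in PTZ (-0.14, SE 0.26). Both overlapped between the groups. The scaffold genes Psmd1 and Psmd2 had values of 0.25 (SE 0.22) and -0.12 (SE 0.20). Psmd7 stood at 443, 429 and 534 CPM in PBS and 344, 464 and 542 CPM in PTZ (-0.06, SE 0.25), with overlap. Per kilobase of exon Psmd7 was highest at 203 and Psmd3 lowest at 18.5 CPM per kb.

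The assembly chaperones had a median of -0.30 over 7 genes, 6 of them negative (47.3% of all genes tested were negative). They held both members of the family at an unadjusted p under 0.05 in edgeR (28.6% of the class, background 3.38% lower). Without PBS library 1 the number of such members in the family was 0. The median of the class was -0.13 without PBS library 1, -0.46 without PBS library 2 and -0.56 without PTZ library 4. Psmg2, which with Psmg1 forms the chaperone that starts the alpha ring, stood at 55.6, 36.1 and 47.1 CPM in PBS and 24.6, 26.6 and 32.9 CPM in PTZ. All its PTZ libraries lay below all PBS libraries (-0.72, SE 0.26, unadjusted p = 0.0179, adjusted p = 0.648 in edgeR). Psmd10, also known as gankyrin, a chaperone of the 19S base (ENSMUSG00000031429, chromosome X, 140948429 to 140956728, minus strand), stood at 116, 72.3 and 103 CPM in PBS and 65.4, 67.0 and 69.0 CPM in PTZ. Its groups did not overlap either (-0.53, SE 0.23, unadjusted p = 0.0403, adjusted p = 0.690 in edgeR). The partner Psmg1 had a value of -0.20 (SE 0.26). Psmd5, a base chaperone, was the positive member (0.19, SE 0.25), at 36.8, 27.3 and 30.4 CPM in PBS and 29.9, 42.1 and 36.3 CPM in PTZ. It was the lowest of the class per length, at 4.67 CPM per kb of exon, and Psmg4 was the highest at 65.4. Per kilobase of coding sequence Psmd10 was the highest instead, at 119 against 98.3 for Psmg4. Psmg4 stood at 37.5, 32.9 and 40.2 CPM in PBS and 32.1, 13.7 and 61.3 CPM in PTZ, so PTZ libraries 2 and 4 were its lowest and highest values.

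The activators that interferon does not induce had positive values, while the inhibitor did not. Psme4, which encodes the large activator PA200 (ENSMUSG00000040850, chromosome 11, 30771726 to 30880361, plus strand), stood at 30.5, 28.8 and 33.4 CPM in PBS and 56.4, 31.4 and 42.9 CPM in PTZ (0.50, SE 0.27, adjusted p = 0.716 in edgeR). PTZ library 2 lay within its PBS range. Psme3, the nuclear PA28 gamma, stood at 49.9, 56.3 and 48.4 CPM in PBS and 58.1, 71.7 and 48.5 CPM in PTZ (0.21, SE 0.23). Psmf1, the proteasome inhibitor PI31, stood at 83.2, 111 and 113 CPM in PBS and 69.5, 96.1 and 98.7 CPM in PTZ (-0.21, SE 0.23). All 3 genes overlapped between the groups.

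Members with longer coding sequences had higher fold changes. The 5 tested members with at least 1500 coding bases were Psmd1, Psmd2, Psmd3, Psmd5 and Psme4, of which 4 had a positive value (median 0.25), against 6 of the 44 shorter ones (median -0.21). Spearman's rho between coding length and log2 fold change was 0.41 across the 49 members and 0.29 across 12354 protein-coding genes tested. Without PTZ library 1 it was 0.20 and 0.16, and without PBS library 1 it was 0.30 in both sets. The split at 1500 bases was not made over all genes, so its counts have no background here. Genes are not independent replicates and all points share the same libraries, so these values are descriptions. The part of length in the members' values was not tested.

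**Figure D5:**
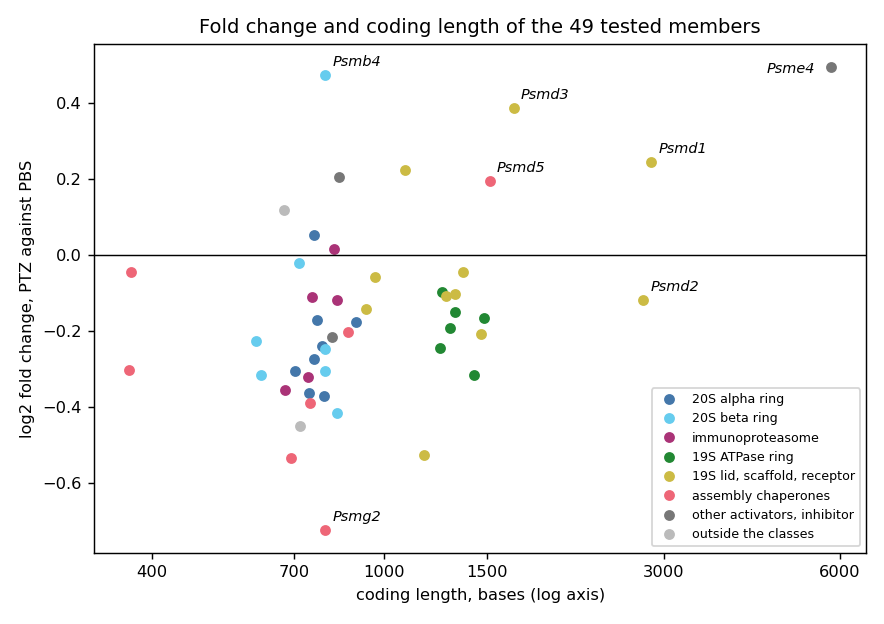
Log2 fold change, PTZ against PBS, against coding length in bases (log axis) for the 49 tested members, coloured by class. Of the 5 members with at least 1500 coding bases 4 lie above 0, and of the 44 shorter members 38 lie below it.

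Genes of the pathway outside the family gave no call in edgeR over all genes either. The list of factors that control subunit genes had 8 positive values of 9 and a median of 0.29, with 2 positive and 0 negative members at an unadjusted p under 0.05 (background 3.83% higher and 3.38% lower, with 47.3% of all genes negative). Mafk, a small Maf protein that pairs with Nfe2l1 and Nfe2l2 on DNA, stood at 17.4, 26.8 and 16.8 CPM in PBS and 40.0, 46.6 and 38.1 CPM in PTZ (1.03, SE 0.27, adjusted p = 0.529 in edgeR). Its relative Maff stood at 16.5, 67.6 and 17.2 CPM in PBS and 99.2, 109 and 71.2 CPM in PTZ (1.47, SE 0.50, adjusted p = 0.648 in edgeR), and it was called without PBS library 2 (2.43) and without the filter on low counts (1.42). The groups of both genes did not overlap. Nfe2l1, which raises proteasome genes when proteasome activity is short, stood at 97.5, 130 and 132 CPM in PBS and 105, 152 and 181 CPM in PTZ (0.29, SE 0.25), with overlap.

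Assembly and partner factors had 9 positive values of 12, a median of 0.39, and 3 positive members at an unadjusted p under 0.05 (background 3.83%). Fbxo7, which binds the inhibitor PI31, stood at 66.4, 92.0 and 104 CPM in PBS and 156, 134 and 159 CPM in PTZ (0.77, SE 0.22, adjusted p = 0.577 in edgeR). Zfand5, an activator of the 26S proteasome, stood at 66.5, 64.0 and 47.7 CPM in PBS and 126, 90.9 and 77.5 CPM in PTZ (0.72, SE 0.25, adjusted p = 0.648 in edgeR). Neither overlapped between the groups. Pomp, the maturation factor of the core, was among the negative ones: 1440, 1497 and 1348 CPM in PBS and 991, 1520 and 1055 CPM in PTZ (-0.26, SE 0.28). PTZ library 2 was its highest value and PTZ libraries 1 and 4 its lowest, as in the summed beta ring.

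Ubiquitin genes and shuttle factors had 8 positive values of 14 and a median of 0.15. Vcp, the p97 segregase, stood at 245, 238 and 197 CPM in PBS and 286, 335 and 303 CPM in PTZ (0.44, SE 0.21, adjusted p = 0.700 in edgeR), with no overlap.

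Partners of the immunoproteasome in the interferon-gamma and MHC class I pathway were split, with 9 positive values of 17 and a median of 0.00. Irf1, the interferon-induced factor that raises Psmb9 and Tap1, stood at 63.5, 249 and 78.8 CPM in PBS and 73.1, 54.8 and 50.3 CPM in PTZ (-1.13, SE 0.46, adjusted p = 0.686 in edgeR). PBS library 2 lay far above the others, and without it the log2 fold change was -0.30. Without the filter on low counts the gene was called (-1.17). Tap1, the peptide transporter gene whose annotated RefSeq start lies 226 bases from that of Psmb9 on the opposite strand, stood at 40.7, 65.2 and 28.0 CPM in PBS and 45.8, 81.1 and 47.5 CPM in PTZ (0.38, SE 0.34). Neither Tap1 nor Psmb9 reached an adjusted p under 0.05 in edgeR (0.832 and 0.791), and the groups of both overlapped. Both kept their sign under all 14 alternatives. Without 1 library the value of Tap1 ran from 0.027 (without PTZ library 2) to 0.73. That of Psmb9 ran from -0.51 to -0.13 (without PTZ library 1). Exons of both genes overlap by 5.79% of the length of Psmb9, and without strand such reads cannot be assigned. Jak2, a kinase of the interferon-gamma receptor, stood at 25.6, 29.0 and 30.4 CPM in PBS and 47.0, 39.8 and 44.9 CPM in PTZ (0.63, SE 0.23, adjusted p = 0.648 in edgeR).

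Markers of other cells had values of their own in these libraries. All 12 microglial and myeloid markers had a negative value (median -0.43), 3 of them at an unadjusted p under 0.05 in edgeR (background 3.38% lower, with 47.3% of all genes negative), and their summed level in PTZ library 4 (3402 CPM) lay above that of PBS library 2 (3365 CPM). Microglia express immunoproteasome genes, and the part of these cells in the values of Psmb8, Psmb9, Psmb10, Psme1 and Psme2 was not tested. All 9 tested markers of pericytes and smooth muscle (median 1.18) and all 6 of fibroblasts (median 1.41) had a positive value. In each of these lists 3 were at an unadjusted p under 0.05 in edgeR (background 3.83% higher). The pericyte and smooth muscle list summed to 199, 296 and 562 CPM in PBS and 1074, 338 and 1013 CPM in PTZ. For the fibroblast list it was 81.7, 87.3 and 143 CPM in PBS and 245, 84.0 and 261 CPM in PTZ. The part of these cells in the values of the family was not tested. The lists of neurons, astrocytes, oligodendrocytes and of lymphocytes and platelets had medians of 0.18, 0.37, -0.17 and 0.01. The neuron list summed to 270 to 446 CPM in PBS and 252 to 462 CPM in PTZ, of which Stmn2 made up 257 to 409 CPM and 229 to 422 CPM. Rbfox3 stood at 4.81 to 25.6 CPM in PBS and 10.7 to 28.5 CPM in PTZ, and Snap25 at 0.454 to 0.812 CPM and 1.39 to 3.76 CPM, with all PTZ libraries above. Tubb3, Slc17a7 and Gad2 were at or near 0 in all libraries, the highest value being 0.496 CPM. The part of neuronal RNA in the values of the family was not tested.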

How the data were processed

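RNA of 3 PBS and 3 PTZ libraries was analysed. The authors deposited raw read counts for 53465 Ensembl genes, per the file headers. They also deposited a signal for each library, the count over a library-specific factor. Tools named in the submitters' processing notes, with no role or order, are HTSeq, CASAVA, edgeR and TopHat2 (version 2.1.1), and the build is GRCm38. The sources used here give no annotation release or strand setting. The 5 rows that name no gene held 16.1% to 22.9% of reads and were left out. Symbols, positions and lengths came from GENCODE M21 (GRCm38), which held 53360 of the IDs, and promoter windows from RefSeq.

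The filter was filterByExpr with a minimum count of 10 and a minimum total of 15. Counts were scaled by TMM and tested with edgeR 4.0.16 (quasi-likelihood, R 4.3.3) on the group, 2-sided, with Benjamini-Hochberg adjustment over 13768 genes and a threshold of 0.05. The biological coefficient of variation was 0.470, and libraries held 11107481 to 15406967 gene counts, which limits precision for low genes. The SE is the fold change over the root of its F statistic. DESeq2 1.42.0, limma-voom (limma 3.58.1), other scalings and filters, a replicate block and each library left out were alternatives.

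Libraries sharing a number in their titles deviated together from their group means (correlations across genes 0.167, 0.197 and 0.217), over 0.1 in every pair, so the numbers were taken to pair them. Libraries with different numbers gave correlations from -0.127 to -0.0620. Deviations from a group mean cancel out within the group, so positive values for shared numbers make the others negative on average. The negative values are thus no separate support for pairing. The labels state no pairing, and the main test did not use it. Members, classes, lists and motifs were chosen with earlier results of these data known. Named genes were the catalytic, PA28 and other listed subunits, the 2 smallest p and the level extremes per class, and the 2 smallest p per pathway list with Nfe2l1, Pomp, Tap1 and Irf1. A gene that this rule names is not reported here. Other members named were chosen after their values were seen. Of the pathway symbols written down, those without a match in the annotation were left out. Reads in exons shared by overlapping genes cannot be assigned with certainty.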

Additional observations from a re-analysis of the deposited data

How the results depend on the processing

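Under all 14 alternatives 0 members were called, and 35 to 41 of 49 had a negative value (main 39; 40 with the replicate block). Members at an unadjusted p under 0.05 and lower numbered 2, against 1 with no scaling beyond the total, 4 under the authors' scaling, 3 with the replicate block and 0 to 4 without 1 library, and members that were higher 0, against 0 to 1 without 1 library. Over all genes edgeR called 0 higher and 0 lower, DESeq2 53 and 23, limma-voom 1 and 0, edgeR without the low-count filter 77 and 44, and edgeR with the replicate block 0 and 0. Without 1 library 0 to 8 were called higher, the 8 without PBS library 2. Pathway genes called higher and lower were 1 and 2 without the filter (0 and 0 with it), and 0 to 1 higher without 1 library. At an unadjusted p, 7 pathway genes were higher and 2 lower, against 12 higher with the replicate block, and 4 to 7 higher and 1 to 5 lower without 1 library.

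Without 1 library the class medians ran from -0.39 (without PBS library 2) to -0.22 in the alpha ring, -0.51 (without PTZ library 2) to -0.12 in the beta ring, -0.56 (without PTZ library 4) to -0.13 (without PBS library 1) in the assembly chaperones, -0.50 to -0.022 in the immunoproteasome, -0.29 (without PBS library 2) to -0.12 in the ATPase ring, -0.15 to -0.0031 (without PBS library 4) in the other 19S genes and 0.0078 to 0.33 in the activators and inhibitor. The share of Psmb8 was 52.3% in PBS and 55.0% in PTZ by coding length and 53.4% and 56.0% with no length, that of Psmb9 6.60% and 5.44%, and 6.27% and 5.16%, and that of Psmb10 83.1% and 86.2%, and 82.9% and 86.0%. Of 41 named genes 31 kept their sign under every alternative. Psma6 was -0.025 under the authors' scaling. Psmb10 was -0.043 by limma-voom, -0.0014 with no scaling beyond the total, -0.058 under the authors' scaling, -0.034 without the filter and -0.052 with the replicate block. Psmg4 was 0.027 with no scaling beyond the total. Without 1 library the values ran from -0.10 to 0.16 for Psma6, -0.53 to 0.10 for Psma8, -0.35 to 0.24 for Psmb10, -0.71 to 0.017 for Psmb5, -0.29 to 0.12 for Psmb6, -0.50 to 0.062 for Psmb8, -0.13 to 0.36 for Psmc3ip, -0.22 to 0.10 for Psmd7, -0.52 to 0.16 for Psme1 and -0.69 to 0.31 for Psmg4. With the sign kept, they ran from 0.21 to 0.63 for Psmb4, -0.51 to -0.13 for Psmb9, 0.18 to 0.50 for Psmd3, -0.72 to -0.34 for Psmd6, 0.27 to 0.64 for Psme4, -0.52 to -0.15 for Pomp and 0.027 to 0.73 for Tap1. The cause of these shifts was not tested. With 3 libraries per group and a biological coefficient of variation of 0.470, differences of the size seen here were not called, which does not show that levels were alike.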
